A study of Mus musculus with 2 samples.

Results

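A set of 10 imprinted genes of embryonic growth and brain, each chosen by name, was followed in neural precursor cells with extra HMGN1, namely Igf2, H19, Grb10, Plagl1, Mest, Dlk1, Meg3, Peg3, Ndn and Nnat. A member was taken where the array's annotation gave a probe set its symbol and no other. That found 9 probe sets, 1 for each of 9 genes, among 28944 probe sets on the array. H19 had no probe set of this kind and was not analysed here.

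Imprinted genes are transcribed mainly from the allele of a single parent. Parental alleles are told apart by DNA methylation and chromatin marks laid down in the germ line. Many of these genes set the growth of the embryo. In general, paternally expressed ones such as Igf2 promote growth and maternally expressed ones such as Grb10 restrain it. Several are abundant in the embryonic brain, where Dlk1, Plagl1, Ndn and Nnat are known from precursor cells and young neurons.

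The RNA came from neural precursor cells of Jcl:ICR mouse embryo forebrain at stage E11.5. They received a retrovirus carrying HMGN1, a chromatin protein that binds nucleosomes, or a control retrovirus. Per the labels, both cultures were grown with FGF2 and EGF, the mitogens that keep precursors dividing, and were replated 3 days after infection. They then spent 1 day without these factors before total RNA was taken. There are 2 arrays, 1 for each virus, so no test between the viruses was possible and no p-value is given. The labels do not give the share of infected cells, and the controls carry a retrovirus too.

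Intensity is the brightness of a probe set as deposited, on a linear scale. A difference is the log2 value of intensity plus 16 with the HMGN1 virus minus that with the control virus, and it describes these 2 RNA samples. Levels of different genes are not compared, since each probe set has its own response. Hmgn1 itself read 348 with the HMGN1 virus, against 230 with the control virus, a difference of 0.57. The median intensity was 98.8 on the HMGN1 virus array and 101 on the control virus array. A gene counted as detected at a mean intensity of 86.0 or more, which left 11330 genes with a median difference of 0.027. As yardsticks of scatter, the difference varied with an SD of 0.0891 among probe sets that share a gene (683 genes) and of 0.111 among all detected genes. Neither SD covers variation between cultures.

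The promoter windows of 4 members are shown because these genes had the lowest (Plagl1, Igf2) and highest (Mest, Meg3) differences of the set, and because methylation of cytosine in CG pairs is what tells parental alleles apart at such loci. The sequences are from RefSeq on build GRCm38.p6, from 250 bases before to 50 after an annotated start, read 5′ to 3′ on the gene's strand, with every CG in capitals. Where a gene had several windows, the window with the most CG pairs is shown (for Mest, the first of a tied pair). They lie at chr10:13090582-13090881 (plus strand) for Plagl1, chr7:142658755-142659054 (minus strand) for Igf2, chr6:30737800-30738099 (plus strand) for Mest and chr12:109540746-109541045 (plus strand) for Meg3.
Plagl1: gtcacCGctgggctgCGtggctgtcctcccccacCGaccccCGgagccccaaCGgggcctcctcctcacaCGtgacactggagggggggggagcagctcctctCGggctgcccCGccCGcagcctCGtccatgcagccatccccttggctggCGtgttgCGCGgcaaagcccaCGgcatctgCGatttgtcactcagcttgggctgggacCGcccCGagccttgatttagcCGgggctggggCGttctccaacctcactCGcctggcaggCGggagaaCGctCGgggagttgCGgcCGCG
Igf2: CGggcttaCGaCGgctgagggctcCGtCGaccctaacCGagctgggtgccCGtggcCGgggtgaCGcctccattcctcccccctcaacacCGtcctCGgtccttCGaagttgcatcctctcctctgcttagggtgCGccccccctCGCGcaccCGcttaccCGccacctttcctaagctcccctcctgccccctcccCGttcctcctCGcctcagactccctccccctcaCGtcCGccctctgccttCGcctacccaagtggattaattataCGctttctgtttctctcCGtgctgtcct
Mest: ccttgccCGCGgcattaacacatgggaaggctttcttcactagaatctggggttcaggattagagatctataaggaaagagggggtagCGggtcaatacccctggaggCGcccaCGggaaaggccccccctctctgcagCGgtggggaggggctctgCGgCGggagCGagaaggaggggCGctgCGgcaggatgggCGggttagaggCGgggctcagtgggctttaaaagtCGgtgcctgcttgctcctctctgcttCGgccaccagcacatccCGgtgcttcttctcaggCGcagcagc
Meg3: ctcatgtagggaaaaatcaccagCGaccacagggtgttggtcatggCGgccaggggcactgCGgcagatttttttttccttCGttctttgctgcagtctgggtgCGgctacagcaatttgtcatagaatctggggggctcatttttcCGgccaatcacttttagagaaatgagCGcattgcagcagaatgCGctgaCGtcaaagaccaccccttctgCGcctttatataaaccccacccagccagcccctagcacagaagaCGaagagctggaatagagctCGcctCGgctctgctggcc

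These windows hold 26 CG pairs in Plagl1, 24 in Igf2, 17 in Mest and 13 in Meg3. Of the other members, the window richest in CG has 45 in Grb10, 17 in Nnat, 13 in Peg3, 11 in Ndn and 9 in Dlk1. All 9 counts are above 7, the median over all 32851 promoter windows of the table, although taking the richest window of a gene raises its count. A CG pair reads the same on either strand, and 94.6% of all windows hold at least 1. The lowest genes of the set, Plagl1 (26) and Igf2 (24), had more CG pairs than the highest, Mest (17) and Meg3 (13). Grb10 had the most CG pairs and Dlk1 the fewest, and both lay close to their control values. Whether this count goes with the difference was not tested. These windows need not be the methylated control regions of the loci, methylation was not measured, and an array does not show which allele an RNA came from.

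None of the 9 measured genes differed by 1.5-fold between the viruses, and none reached a smaller size, a log2 difference of 0.32. Among all detected genes 0.0706% passed 1.5-fold in either direction. The smaller size was passed by 1.03%, namely 0.512% upward and 0.521% downward, so that 0 of 9 is near the background. The differences of the imprinted genes ran from -0.14 (Plagl1) to 0.11 (Mest), with a median of 0.0031. A total of 5 genes were higher and 4 lower with the HMGN1 virus, where 60.1% of detected genes were higher and 38.4% lower. The SD between probe sets was exceeded by 5 of the 9, of which 2 were higher (Mest, Meg3) and 3 lower (Plagl1, Igf2, Ndn). That size was passed by 40.9% of all detected genes, 26.9% upward and 14.1% downward. The split depends on processing. After centring on the median of detected genes, Mest (0.083) and Meg3 (0.066) were under the SD between probe sets. Nnat (-0.10) was then past it on the lower side, and Plagl1, Igf2 and Ndn stayed past it. All 9 genes were detected, the dimmest, Igf2, at 1.67 times the detection floor.

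**Figure D1:**
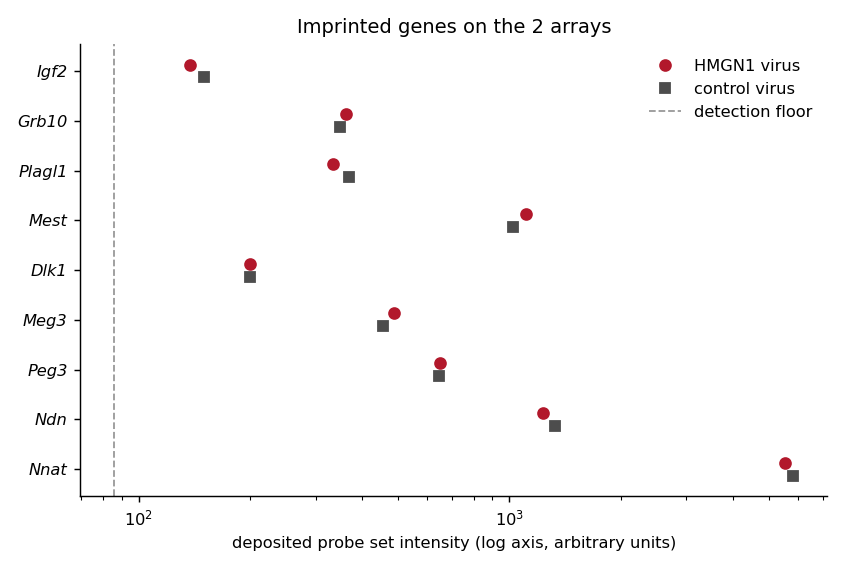
Intensity of the 9 imprinted genes (log axis, arbitrary units) with the HMGN1 virus (circles) and the control virus (squares), 1 array each, with the detection floor of 86.0 dashed. The 2 symbols of a gene lie close together in every row, and the widest gap, that of Plagl1, is 1.11-fold on this scale.

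Igf2 encodes insulin-like growth factor 2, the main growth-promoting ligand among imprinted genes. It read 137 with the HMGN1 virus, against 150 with the control virus, a difference of -0.11. The intensity was thus 8.35% lower, and 10.1% of detected genes had a difference further down. The 500 detected genes nearest to Igf2 in intensity had an SD of 0.122, so its difference was smaller than the SD of genes of like brightness. Grb10, an adaptor that binds insulin and IGF receptors and dampens their signal, read 361 with the HMGN1 virus, against 349 with the control virus (0.049). It lies near the middle of the distribution, with 58.5% of detected genes below it. Grb10 is transcribed from the maternal allele in most tissues and from the paternal allele in neurons, and the array does not separate these.

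Plagl1 (Zac1) is a paternally expressed zinc finger transcription factor that restrains the cell cycle and is known to act on other imprinted genes. It had the lowest value of the set, 334 with the HMGN1 virus, against 370 with the control virus, a difference of -0.14, or 1.10-fold lower with 16 added to both values. Of all detected genes 6.63% lay below it. The 500 genes nearest to Plagl1 in intensity had an SD of 0.107, and its difference was larger than that SD. An SD is not the limit of the scatter of genes of like brightness. Peg3, a large zinc finger protein expressed from the paternal allele, read 648 with the HMGN1 virus and 644 with the control virus (0.0078). Its value hardly moved, and 42.5% of detected genes lay below it.

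Dlk1 is a membrane and secreted protein related to Notch ligands, expressed from the paternal allele, and Meg3 is a long noncoding RNA expressed from the maternal allele of the same locus. Dlk1 read 199.7 with the HMGN1 virus and 199.3 with the control virus, a difference of 0.0031 and the smallest of the set. Meg3 read 489 with the HMGN1 virus, against 457 with the control virus, a difference of 0.093. This is just past the SD between probe sets and under the SD of 0.101 of the 500 genes nearest in intensity. The reciprocally imprinted partners therefore differed by less than 0.1 each, and whether they differ from each other could not be tested.

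Mest, a paternally expressed membrane protein with the fold of a hydrolase, had the highest difference. It read 1106 with the HMGN1 virus, against 1023 with the control virus (0.11, or 8.06% higher). The 500 genes nearest to Mest in intensity had a median of 0.039 and an SD of 0.0846. The difference of Mest itself was larger than that SD, while its distance from their median was smaller. Of all detected genes 80.0% lay below it, so that many genes of the array exceeded the highest member. Ndn, necdin, belongs to the MAGE family, lies in the Prader-Willi region and favours exit from the cell cycle in young neurons. It read 1234 with the HMGN1 virus, against 1327 with the control virus (-0.10), beyond the SD of 0.0919 of its 500 nearest genes. Nnat, neuronatin, is a small membrane protein of the endoplasmic reticulum that bears on calcium uptake. It read 5540 with the HMGN1 virus, against 5837 with the control virus (-0.075), less than the SD between probe sets. The 500 genes nearest to Nnat in intensity had a median of 0.025 and an SD of 0.0958. The difference of Nnat itself was smaller than that SD, while its distance from their median was larger.

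**Figure D2:**
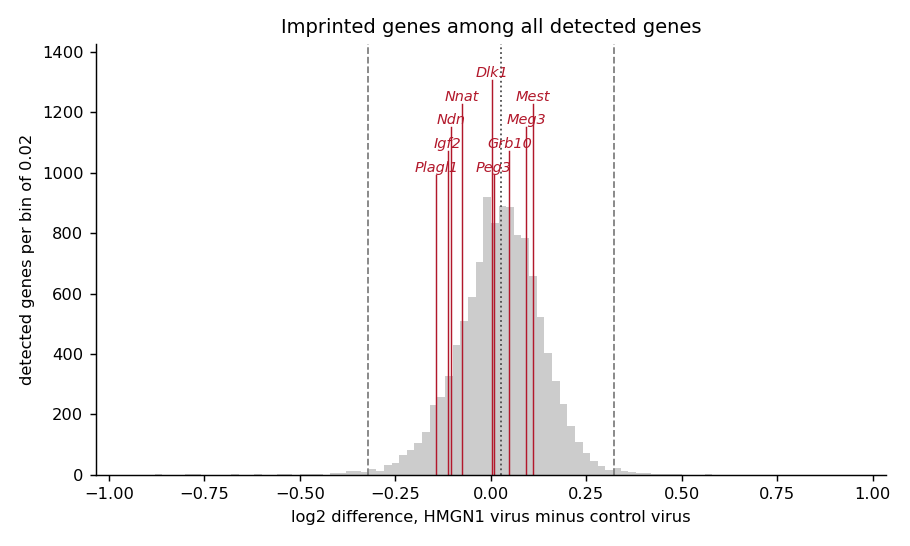
Histogram of the log2 difference, HMGN1 virus minus control virus, over 11330 detected genes in bins of 0.02, with the 9 imprinted genes as labelled lines, the median of 0.027 dotted and a difference of 0.32 either way dashed. All 9 lines stand inside the dashed limits, from -0.14 for Plagl1 to 0.11 for Mest.

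On these arrays the difference also moved with gene span, the annotated distance from a gene's start to its end in RefSeq. With detected genes in 10 bins of equal size by span, the bin of the shortest genes had a median difference of -0.035 and the bin of the longest 0.052. Ndn, at 1.65 kb, and Nnat, at 2.45 kb, are in the shortest bin. Both had lower values with the HMGN1 virus (-0.10 and -0.075), below the median of that bin. Plagl1, at 40.9 kb, is in a bin with a median of 0.047, and Igf2, at 16.05 kb, in a bin with 0.018, so these genes also lay below the median of genes of like span. With the trend of span removed, Ndn was at -0.071 and Nnat at -0.052, nearer to 0, whereas Plagl1 was at -0.19 and Igf2 at -0.13. The part of span in these values was not tested.

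By parental origin, the 7 paternally expressed members measured (Igf2, Plagl1, Mest, Dlk1, Peg3, Ndn and Nnat) held 3 higher and 4 lower genes, with a median of -0.075. Both members counted as maternally expressed, Meg3 and Grb10, were slightly higher, where 60.1% of all detected genes were higher. Grb10 (0.049) was close to the median of its bin of gene span (0.055), and was at -0.0041 with the trend of span removed. Grb10 is also expressed from the paternal allele in neurons, so its origin in these cells is not known. No difference between the origins can be read from these members. In wider lists the medians for both origins were close to each other. Of 22 other paternally expressed genes 10 were detected, 6 higher and 4 lower, with a median of 0.013. The highest were Impact, a regulator of translation under amino acid stress (519 with the HMGN1 virus, 449 with the control virus, 0.20), and Mcts2 (0.14). The lowest were the noncoding RNA Airn, which silences Igf2r on the paternal allele (163 with the HMGN1 virus, 201 with the control virus, -0.28), and the sarcoglycan Sgce (-0.089). Of 31 other maternally expressed genes 16 were detected, 8 higher, 7 lower and Trappc9 with the same value in both columns, and their median was 0.013 too. The serotonin receptor Htr2a (0.22) and Gatm, an enzyme of creatine synthesis (0.22), were highest, and Th, tyrosine hydroxylase (-0.18), and Tssc4 (-0.14) lowest. Across the 35 detected imprinted genes of the set and both lists, 19 were higher, 15 lower and 0 reached a difference of 0.32 either way. Whether each of these 35 genes is imprinted in the cells used here was not measured. The SD between probe sets was exceeded by 13 of them, or 37.1%, beside the 40.9% of all detected genes.

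**Figure D3:**
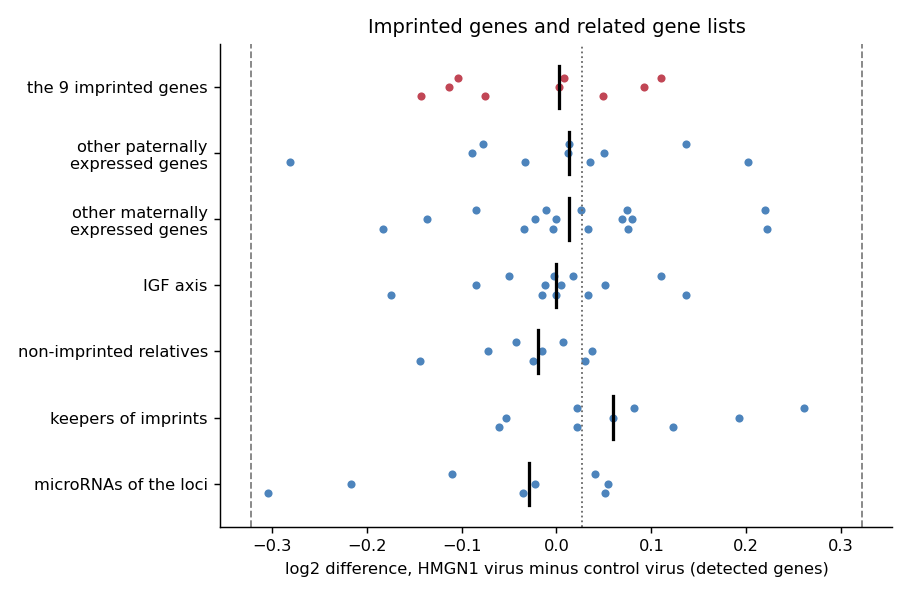
Log2 differences, HMGN1 virus minus control virus, of the detected genes of the imprinted set (top) and of 6 related lists, with a black bar at each list's median, the median of all detected genes (0.027) dotted and a difference of 0.32 either way dashed. No point passes a dashed line, and the list medians lie between -0.029 (microRNAs of the loci) and 0.060 (keepers of imprints).

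Neighbours on the chromosome are given here by locus, and whether they follow the imprinted gene beside them was not tested. Of 42 listed neighbours 36 were measured and 16 detected. Of these 9 were higher and 7 lower (median 0.023), where 60.1% of all detected genes were higher and 38.4% lower. A difference of 0.32 either way was reached by 0 of the 16, beside 1.03% of all detected genes. Near Igf2 and H19, the mitochondrial ribosome gene Mrpl23 (-0.13, and -0.14 on its second probe set) and Th were lower, like Igf2. Th was close to the floor, and Cd81, a tetraspanin, was higher (0.074). Beside Plagl1, Sf3b5, a splicing factor subunit, went the opposite way (294 with the HMGN1 virus, 246 with the control virus, 0.24), and Ltv1 was at 0.039. Copg2, whose span overlaps the end of Mest in RefSeq, was at 0.026, and Cep41 (-0.087) and Klf14 (-0.085) were lower, unlike Mest. Nnat lies within an intron of Blcap, whose difference was 0.019, and Ctnnbl1 beyond it was at 0.28 (360 with the HMGN1 virus, 294 with the control virus). Near Ndn, Magel2, its closest relative there, was at 0.035 and Peg12 at -0.077. Fignl1 near Grb10 was at 0.031. Around Dlk1 and Meg3, Wdr25 was lower on both its probe sets (-0.27 each; 91.3 with the HMGN1 virus and 113 with the control virus on the brighter), and Wars was at 0.036. Ppp2r5c, counted as lower, was at -0.035 on its brightest probe set and at 0.017 to 0.085 on its 3 others. Imprinted genes of that locus were dim: Rtl1 read 42.6 with the HMGN1 virus and 49.0 with the control virus, Dio3 39.1 with the HMGN1 virus and 43.8 with the control virus, and the noncoding RNA Rian 84.7 with the HMGN1 virus and 71.4 with the control virus. Both measured neighbours of Peg3, Usp29 and Zim1, were under the floor as well.

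**Figure D4:**
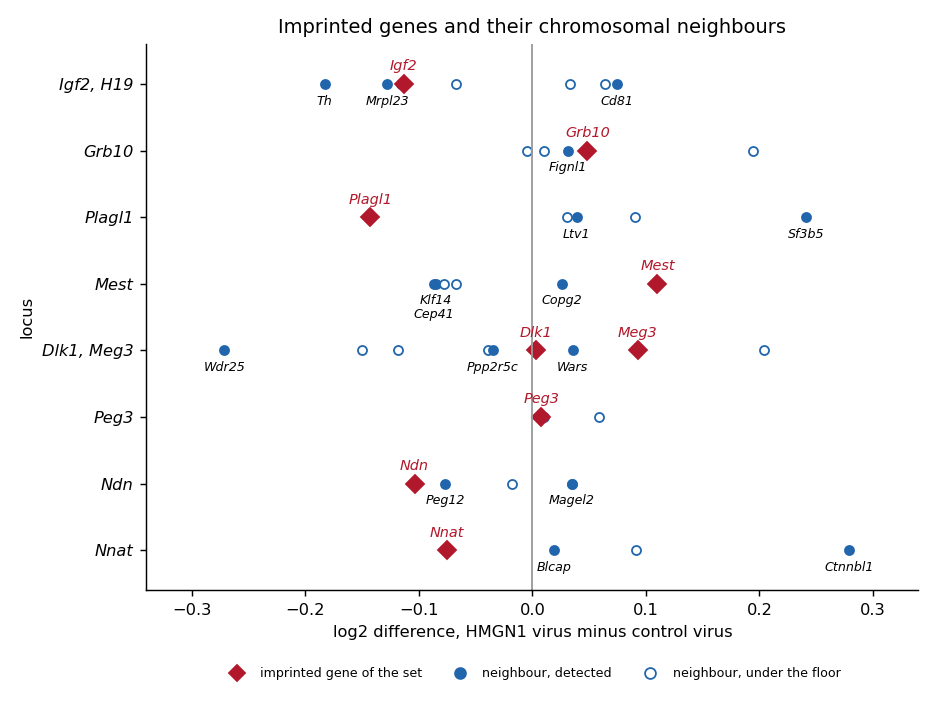
Log2 differences, HMGN1 virus minus control virus, of the imprinted genes (diamonds) and their listed neighbours (filled circles where detected, open where under the floor), 1 row for each locus. The neighbours of a locus fall on either side of 0 in most rows, and Plagl1 (-0.14) and Sf3b5 (0.24) stand apart from each other in 1 row.

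The Dlk1 and Meg3 locus also carries a large microRNA cluster on the maternal allele, Igf2 hosts Mir483 and Mest hosts Mir335. Of 49 listed microRNA genes 40 were measured and 8 detected, with 3 higher, 5 lower and a median of -0.029. Among all 84 detected microRNA genes 29 were higher and 53 lower, with a median of -0.043. The lowest were Mir431, at 107 with the HMGN1 virus and 135 with the control virus (-0.30), and Mir673, at 145 with the HMGN1 virus and 171 with the control virus (-0.22). Mir679 was at -0.11, and the other 5 lay between -0.035 (Mir667) and 0.055 (Mir666), with Mir134 at 0.051. Mir483 was at -0.023 (166 with the HMGN1 virus, 169 with the control virus), beside -0.11 for Igf2, and whether these differ from each other could not be tested. Mir335 was under the floor, at 27.5 with the HMGN1 virus and 23.0 with the control virus. Whether these probe sets read the primary transcript or the mature microRNA was not tested. The mature sequences of the lowest pair and of the microRNA inside Igf2, from RefSeq on GRCm38.p6, are shown 5′ to 3′ with the seed (bases 2 to 8) in capitals, and no detected microRNA gene of the list shared a seed with another.
mmu-miR-431-5p: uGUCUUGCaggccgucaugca
mmu-miR-431-3p: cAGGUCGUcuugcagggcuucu
mmu-miR-673-5p: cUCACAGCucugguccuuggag
mmu-miR-673-3p: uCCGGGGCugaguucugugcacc
mmu-miR-483-5p: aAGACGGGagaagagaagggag
mmu-miR-483-3p: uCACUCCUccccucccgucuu

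The IGF axis, through which Igf2, Grb10 and several other imprinted genes act, had 13 of 19 listed genes detected, 6 higher, 6 lower and Igfbp3 with the same value in both columns. Its median was 0, beside 0.027 for all detected genes, of which 60.1% were higher and 38.4% lower. A difference of 0.32 either way was reached by 0 genes of the axis. The receptors that signal for Igf2 stayed near their control values, Igf1r at -0.0021 (746 with the HMGN1 virus, 747 with the control virus) and Insr at -0.012. Igf2r, the maternally expressed receptor that clears Igf2, was at 0.034. The highest were the RNA-binding proteins Igf2bp1 (0.14, and 0.16 on its second probe set) and Igf2bp3 (0.11), which bind Igf2 mRNA. At the other end were the binding proteins Igfbp7 (89.3 with the HMGN1 virus, 103 with the control virus, -0.17) and Igfbp2 (-0.085). Among further genes of the imprinted network described around Plagl1 in mouse, Gatm (0.22), the cell cycle inhibitor Cdkn1c (359 with the HMGN1 virus, 341 with the control virus, 0.069) and Igf2r were higher and Sgce lower, with a median of 0.051, and Dcn was under the floor.

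Relatives of the members that are not known as imprinted ran from -0.14 to 0.037. Of 10 listed genes 8 were detected, 3 higher and 5 lower, with a median of -0.020. Among all detected genes 60.1% were higher and 38.4% lower. Dlk2, the relative of Dlk1, was lowest (136 with the HMGN1 virus, 152 with the control virus, -0.14), followed by Grb14 (-0.072), and Maged2 (0.037) and Plagl2 (0.030) were highest. The keepers of imprints, here proteins linked to the setting or upkeep of marks at imprinted loci, had 9 of 12 genes detected. Of these 7 were higher and 2 lower, with a median of 0.060, where 60.1% of all detected genes were higher and their median was 0.027. Arid4a (201 with the HMGN1 virus, 165 with the control virus, 0.26) and Uhrf1, which brings Dnmt1 to replicated DNA (153 with the HMGN1 virus, 132 with the control virus, 0.19), were highest. The maintenance methyltransferase Dnmt1 was at 0.060. Zfp57, which binds methylated imprinting control regions (-0.054), and its corepressor Trim28 (-0.061) were lowest. None of these genes reached a difference of 0.32.

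Of the markers listed for the labelled cell type, 13 of 13 neural precursor genes measured were detected, with a median of -0.012. Among them were Sox2 (2444 with the HMGN1 virus, 2422 with the control virus) and Nes (295 with the HMGN1 virus, 304 with the control virus). Neural precursor genes ran from Sox1 (-0.35) and Prom1 (-0.24) up to Slc1a3 (0.15) and Emx2 (0.16). Neuron genes (10 of 10 detected, median 0.041) ran from Tubb3 (-0.17) and Rbfox3 (-0.15) up to Stmn2 (0.22) and Syt1 (0.27). Glial genes (7 of 8 detected, median 0.094) ran from Olig2 (-0.16) and Aldh1l1 (0.044) up to Aqp4 (0.32) and Gfap (0.58). Several members are also used by mesenchyme and meninges, of which 5 of 15 markers were detected, with a median of -0.039. All 15, those under the floor included, had a summed intensity of 1084 with the HMGN1 virus and 1089 with the control virus. Among the detected ones, Col1a1 (-0.19) and Col3a1 (-0.12) were lowest and Col1a2 (0.12) and Pdgfrb (0.042) highest. Choroid plexus markers had 3 of 8 detected (summed intensity over all 8 of 740 with the HMGN1 virus and 749 with the control virus), with Kcne2 at -0.085, Ttr at -0.075 and Otx2 at the same value in both columns. Endothelial markers had 1 of 8 detected (Egfl7, 0.017), microglia and macrophages 1 of 8 (Cx3cr1, 0.0080) and erythroid cells 0 of 7. Fewer cells of a type and less RNA per cell cannot be told apart in these bulk samples, and the part of cell composition in the members' values was not tested.

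**Figure D5:**
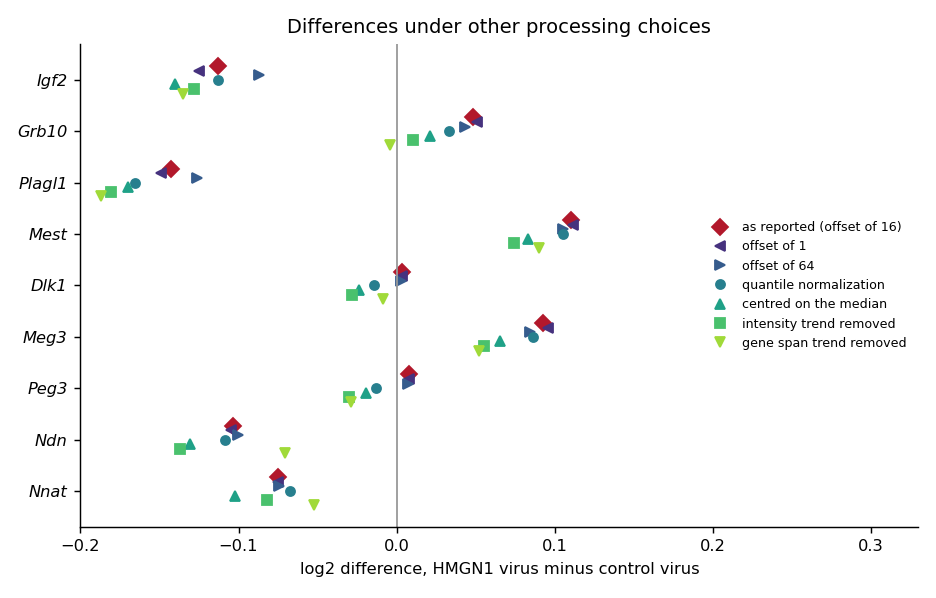
Log2 differences of the 9 imprinted genes, HMGN1 virus minus control virus, as reported (diamonds) and under 6 other offsets, normalizations or trend corrections. Plagl1, Igf2, Ndn and Nnat stay below 0 and Mest and Meg3 above it in all of them, while Dlk1, Peg3 and Grb10 cross 0.

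The plot of differences under other processing choices separates the members whose sign held from those at 0. Plagl1 ran from -0.19 to -0.13, Igf2 from -0.14 to -0.087, Ndn from -0.14 to -0.071 and Nnat from -0.10 to -0.052. Mest ran from 0.074 to 0.11 and Meg3 from 0.052 to 0.096. Dlk1 (-0.028 to 0.0033) and Peg3 (-0.030 to 0.0080) had no stable sign, and Grb10 lay just below 0 (-0.0041) with the trend of span removed. The choice of offset cannot change a sign. A sign that holds under these settings is not a replicate, since all of them use the same 2 arrays.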

How the data were processed

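RNA of 2 cultures was measured on 1-colour whole-transcript arrays, 1 per virus, labelled with biotin per the labels' protocols. The table deposited by the authors gives each array 1 linear intensity for every probe set. The labels name no background correction, normalization or probe summary by the authors, and these are not given in the sources used here. Array number limits the precision, and no p-value was computed.

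Values were taken as log2(intensity + 16) with no further normalization, which understates the difference of dim genes. A gene took its brightest probe set among those with 1 symbol in GEO's platform annotation (21789 probe sets had 1 symbol, 1621 several, 5534 were unnamed here). The floor for detection was the 95th percentile of mean intensity over 1035 probe sets of olfactory receptors, genes hardly used in brain precursors. Gene span came from RefSeq on GRCm38.p6 for 11300 detected genes. Trends were fitted by loess with a span of 0.3 (statsmodels 0.14.6, Python 3.11.15). The code was tested on simulated data.

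The members and the 23 gene lists were chosen with earlier results of these data known. The text names all members, their detected neighbours, some dim neighbours and, of every other list, the 2 highest and 2 lowest detected genes. Igf1r, Insr, Igf2r, Dnmt1, Sox2, Nes, the neighbours under the floor (Rtl1, Dio3, Rian, Usp29 and Zim1) and the microRNAs Mir679, Mir667, Mir483 and Mir335 were named after their values were seen. The alternatives were offsets of 1 and 64, centring, quantile normalization, removal of the trend with intensity or span, averaging the probe sets of each gene, and other floors.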

Additional observations from a re-analysis of the deposited data

How the results depend on the processing

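No paired analysis was possible because either virus has a single array, which also means that no replicate could be left out. The count of imprinted genes at a difference of 0.32 or more either way stayed at 0 under all 9 alternatives, and lowering the size from 1.5-fold to that difference left the count at 0. The median of the members, 0.0031, ran from -0.030 to 0.0033. It was below 0 after centring (-0.024), after quantile normalization (-0.014) and with the trend of intensity (-0.030) or of span (-0.029) removed, so its sign was not stable. Each shift was smaller than the SD of 0.0891 between probe sets of 1 gene, which is a wide limit for a median of 9 genes. Each single member also moved by less than that SD under every alternative. Averaging probe sets changed no member, since each has 1 probe set, and no member lay under the stricter floor of 119.7 (the 99th olfactory receptor percentile). Those settings, and leaving out the floor, could thus not change the count or the median. Low signal limits Igf2 most, at 1.67 times the floor of 86.0. With 1 array per virus, a difference of the size seen here cannot be told apart from variation between cultures, RNA preparations or arrays.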
